A study of Mus musculus with 4 samples.

Results

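The genes described here are Vgf, the granins and the enzymes that process prohormones: Vgf, Chga, Chgb, Scg2, Scg3, Scg5, Pcsk1, Pcsk2 and Cpe. They were chosen by symbol, and 7 of the 9 were found among the 19175 genes listed in either table of the series: 4 in the table for susceptible and control mice (Vgf, Chga, Pcsk1 and Cpe) and 5 in the table for AAV-CDYL and AAV-GFP mice (Vgf, Chgb, Scg3, Pcsk1 and Pcsk2). The series sequenced RNA of the prelimbic cortex, part of the medial prefrontal cortex, from 8-week-old C57BL/6 mice, with 1 library in each of 4 groups. The susceptible group holds mice called stress-susceptible after chronic social defeat, a procedure in which a mouse is repeatedly defeated by an aggressor. Its control group is tagged with the same stress in the labels, which do not say how the control mice were treated. The AAV-CDYL group received an adeno-associated virus that overexpresses CDYL, a chromatin corepressor, and the AAV-GFP group received a virus with green fluorescent protein instead. The promoter of the virus, the cells it reached, and whether a library is 1 mouse or a pool are not stated in the labels.

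Neurons and endocrine cells pack peptide precursors into dense-core granules. Granins are acidic proteins that aggregate in the Golgi and help to form these granules. Prohormone convertases cut precursors after pairs of basic residues, carboxypeptidase E trims the basic residues left at the cut ends, and the peptides are released on stimulation. Vgf encodes a granin-like precursor that neurotrophins and neuronal activity induce. Its transcription, like that of several granin genes, is known to respond to CREB, a factor that binds the cAMP response element in DNA.

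Promoter stretches are shown for the listed genes that the RefSeq table (GRCm38.p6) holds, to show which of them hold a cAMP response element or its core in this window. Capitals mark the letters of a full element (TGACGTCA) or of its core (TGACG, or CGTCA on the other strand), and every full element contains that core on each strand. Each stretch ends before the annotated first exon, except that of Chgb, where the 30 bases around the element are given. The strand is plus for Chga, Chgb, Pcsk1 and Pcsk2 and minus for Scg3, and each sequence reads in the direction of its gene.
Pcsk1, chr13:75089706-75089825: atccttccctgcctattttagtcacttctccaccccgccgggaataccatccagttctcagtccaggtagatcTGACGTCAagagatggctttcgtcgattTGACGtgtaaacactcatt
Chgb, chr2:132781559-132781588: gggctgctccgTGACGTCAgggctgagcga
Chga, chr12:102554821-102554940: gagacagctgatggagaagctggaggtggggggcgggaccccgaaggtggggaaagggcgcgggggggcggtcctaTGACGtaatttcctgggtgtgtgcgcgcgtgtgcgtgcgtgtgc
Pcsk2, chr2:143546013-143546132: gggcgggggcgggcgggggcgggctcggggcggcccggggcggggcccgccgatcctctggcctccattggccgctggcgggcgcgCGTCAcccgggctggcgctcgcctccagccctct
Scg3, chr9:75684057-75684176: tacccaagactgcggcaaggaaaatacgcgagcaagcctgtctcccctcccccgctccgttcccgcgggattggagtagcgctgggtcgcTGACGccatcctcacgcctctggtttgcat

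Promoters of 7 of the 9 genes were in the table. Those of Vgf and Cpe were not, so neither was searched. Within the 250 bases before the start, searched on both strands, a full element stood in 3 of the 7, those of Pcsk1, Chgb and Scg2, and in 1.55% of all 32851 promoter windows. Its first base lay 78 bases before the start in Pcsk1, 72 in Chgb and 68 in Scg2. The start is that of RefSeq. In the GENCODE annotation Chgb begins at 132781278 and Scg2, on the minus strand, at 79440120. The elements of Chgb and Scg2 thus lie inside the gene bounds annotated there. The core stood in all 7, against 17.8% of all windows. A GC box (GGGCGG, or CCGCCC on the other strand) stood in 4 of the 7, against 32.7%, and Pcsk2 held 7 of them. These matches describe letters and do not show that a factor binds there.

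Values are FPKM (fragments per kilobase, scaled for library size), which the authors computed separately in each table. No gene above 0 in both libraries of a table is listed with a difference under 0.32 on the log2 scale, so an absent gene is either closer than that or was not measured. Scg2, a granin precursor of secretoneurin, and Scg5, the chaperone of the convertase made from Pcsk2, were in neither table. Of the genes listed at 10 FPKM or more in both AAV libraries, 32.5% were also listed in the stress table, beside 2 of the 5 genes described here. In the other direction the share was 59.6%, beside 2 of 4. To be counted as higher or lower, a gene had to reach 1 FPKM in either library and differ at least 1.5-fold on the log2(FPKM + 1) scale. All 9 values of the listed genes passed that floor. Shares and ranks given for genes above the floor are over listed genes only. Expressed genes inside the listing limit are left out, so these are not shares of all expressed genes. With 1 library per group, no difference has a replicate check and no test of the condition is possible. Effective depth, taken from the spacing of low FPKM values, was 23400000 fragments for susceptible, 14300000 for control, 23900000 for AAV-CDYL and 22900000 for AAV-GFP. Cdyl itself stood at 1052 FPKM with AAV-CDYL and 2.68 FPKM with AAV-GFP, as labelled. The cortical excitatory marker Nrgn was abundant in every library, at 656 FPKM in susceptible, 870 in control, 503 in AAV-CDYL and 761 in AAV-GFP.

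**Figure D1:**
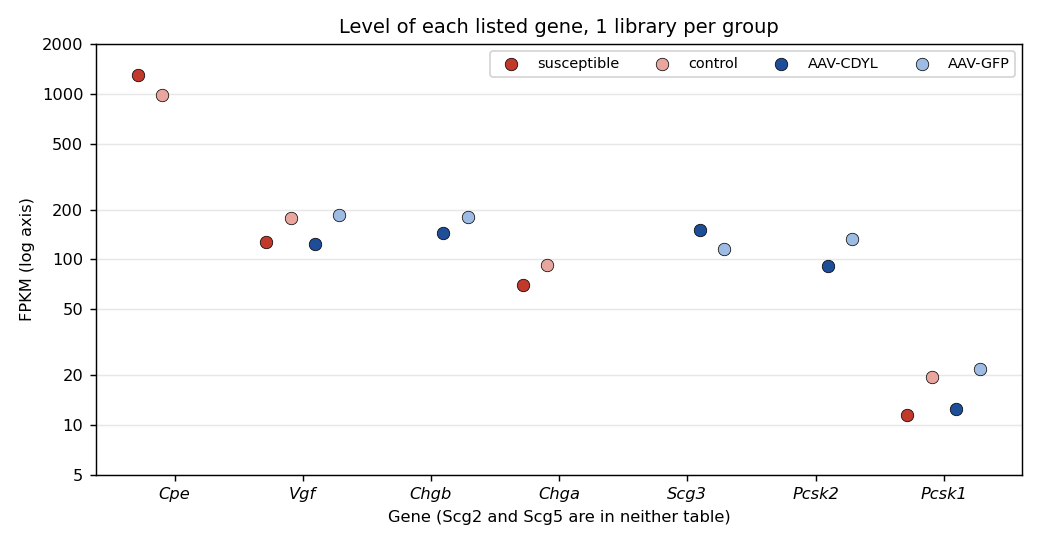
FPKM (log axis) of the 7 listed genes in each library, with 1 point per library and no error bars, since each group has 1 library. On the deposited scale Vgf and Pcsk1, the 2 genes listed in both tables, lie lower in susceptible than in control and lower in AAV-CDYL than in AAV-GFP. Cpe and Scg3 lie higher.

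On the deposited scale, Vgf, Chga and Pcsk1 lay below control in the susceptible library and Cpe lay above. Only Pcsk1 passed the 1.5-fold rule, at 0.594 times its control level. Vgf, at 0.717 times control, did not. That is 1 lower gene of 4, where 10.8% of the 5334 genes above the floor were counted lower and 18.9% higher.

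Vgf (ENSMUSG00000037428, chromosome 5, 137026392 to 137033351, mm10) stood at 127 FPKM in the susceptible library and 177 FPKM in the control library. The difference was -0.48 on the log2(FPKM + 1) scale, and 18.3% of the genes above the floor lay as low or lower. Of the 1720 listed genes at 10 FPKM or more in both libraries, 65.1% lay below control, and their median was -0.36. At a transcript length of 2834 nucleotides the Vgf levels correspond to about 8412 and 7184 fragments in susceptible and control. The exact (Clopper-Pearson) 95% interval of the ratio was 0.695 to 0.740. It covers counting error and leaves out the variation between mice. In bulk tissue, fewer cells that make a transcript and less of it in each cell cannot be told apart.

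Pcsk1 encodes the convertase that makes the first cuts in many precursors. It (ENSMUSG00000021587, chromosome 13, 75089826 to 75132498) stood at 11.5 FPKM in the susceptible library and 19.4 FPKM in the control library, a difference of -0.70. It had the lowest level of the listed genes in all 4 libraries. Of the genes above the floor, 6.47% lay as low or lower. The interval of the ratio from counting error was 0.551 to 0.641. The authors' deposited table gives each of the 4 listed genes q = 0.999.

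Chga, chromogranin A, a granin that aggregates with calcium in the granule (chromosome 12, 102554969 to 102565027), stood at 70.1 FPKM in susceptible and 92.9 FPKM in control. Its difference of -0.40 was under the 1.5-fold rule. Cpe, the carboxypeptidase (chromosome 8, 64592558 to 64693040), was the most abundant gene of the group, at 1307 FPKM in susceptible and 986 FPKM in control. Its difference of 0.41 was also under the rule, and Cpe was not listed in the AAV table.

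Listed general neuron markers were lower in this pair, as were Vgf, Chga and Pcsk1 but not Cpe. All 7 listed members of 14 lay below control (median -0.47), and their summed level was 1744 FPKM in susceptible and 2426 FPKM in control. Relative to that median Vgf differed by -0.0068, Chga by 0.068, Pcsk1 by -0.23 and Cpe by 0.88. The sign of Chga turned on that median, and Pcsk1 no longer passed the 1.5-fold rule. Unlisted markers were inside the listing limit or not measured, so the median over all 14 may be a smaller shift. Whether Chga turns, or Vgf stays level, against all 14 cannot be told. The same limit holds for every value given below relative to neuron markers. All 10 listed oligodendrocyte markers of 11 lay above control, with summed levels of 1583 FPKM in susceptible and 613 FPKM in control. Of the other markers above the floor, 1 of 3 excitatory and 1 of 3 inhibitory neuron markers were lower by the rule, as were 2 of 6 microglia markers, while 2 of 5 astrocyte, 3 of 6 endothelial and 2 of 2 leukocyte markers were higher. Among all genes above the floor, 10.8% were lower and 18.9% higher. The part of these marker shifts in the differences of Vgf and Pcsk1 was not tested.

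**Figure D2:**
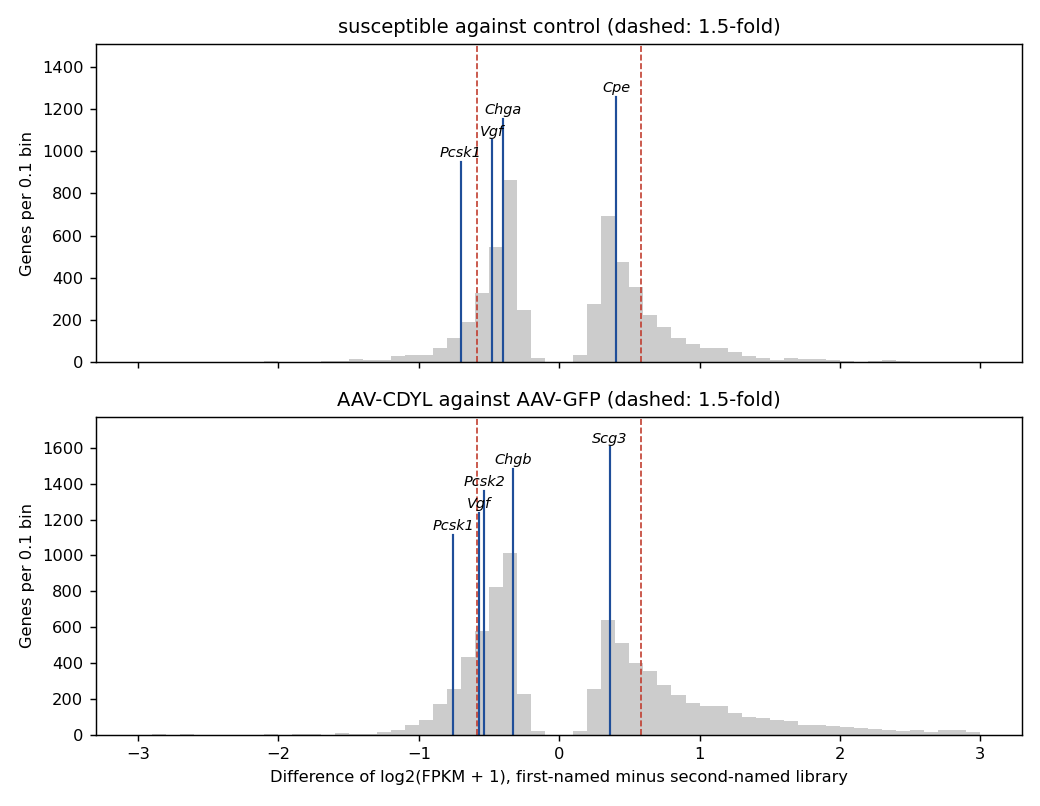
Number of listed genes per 0.1 bin of the difference of log2(FPKM + 1), at 1 FPKM or more in either library. Blue lines mark the genes described here, and dashed lines the 1.5-fold rule. The empty middle reflects the listing limit of the tables. Pcsk1 lies beyond the dashed line in both panels, at -0.70 and -0.76, and Vgf lies inside it, at -0.48 and -0.57.

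On the deposited scale, Vgf, Chgb, Pcsk1 and Pcsk2 in the AAV-CDYL library lay below AAV-GFP and Scg3 lay above. Again only Pcsk1 passed the 1.5-fold rule, at 0.574 times its AAV-GFP level. That is 1 lower gene of 5, where 14.4% of the 8047 genes above the floor were counted lower and 31.3% higher. Genes at 10 FPKM or more in both libraries, the range of all 7 listed genes, were split otherwise than all genes. Of 3057 such genes in this pair, 22% were lower and 13.4% higher, and of 1720 in the stress pair, 13.4% were lower and 9.24% higher.

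Vgf stood at 124 FPKM with AAV-CDYL and 184 FPKM with AAV-GFP. The difference of -0.57 was just short of the 1.5-fold rule, with a ratio of 0.672 and an interval from counting error of 0.654 to 0.691. Of the genes above the floor, 15.5% lay as low or lower. Of the 3057 listed genes at 10 FPKM or more in both libraries, 70.2% lay below AAV-GFP, and their median was -0.40. Pcsk1 stood at 12.5 FPKM with AAV-CDYL and 21.8 FPKM with AAV-GFP, a difference of -0.76, and 6.23% of genes lay as low or lower. Its levels correspond to about 1508 and 2512 fragments in AAV-CDYL and AAV-GFP at a length of 5040 nucleotides, and the interval of its ratio was 0.538 to 0.611.

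Pcsk2, the convertase that completes the cutting of many neuropeptide precursors (chromosome 2, 143546156 to 143816285), stood at 91.3 FPKM with AAV-CDYL and 133 FPKM with AAV-GFP. Its difference of -0.53 was under the rule. The antisense genes Pcsk2os1 and Pcsk2os2 are listed in the same locus, and genes on the other strand cover 4.54% of the exonic bases of Pcsk2, whose fragments an unstranded library cannot separate. Chgb, chromogranin B, an abundant granin of the granule core (chromosome 2, 132781278 to 132795079), stood at 144 FPKM with AAV-CDYL and 180 FPKM with AAV-GFP. With a difference of -0.33 it lay next to the listing limit. Scg3, which binds chromogranin A and cholesterol in the granule membrane (chromosome 9, 75643264 to 75683996), stood at 150 FPKM with AAV-CDYL and 116 FPKM with AAV-GFP, a difference of 0.36. The authors' deposited table gives each of the 5 genes q = 0.999.

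Listed general neuron markers were lower in this pair too. All 10 listed members lay below AAV-GFP, 6 of them by the 1.5-fold rule (median -0.64), with summed levels of 3476 FPKM in AAV-CDYL and 5380 FPKM in AAV-GFP. Relative to that median Vgf differed by 0.068, Pcsk2 by 0.10, Chgb by 0.31, Scg3 by 1.00 and Pcsk1 by -0.12. Pcsk1 then no longer passed the rule, Scg3 passed it as higher, and the signs of Vgf, Pcsk2 and Chgb turned. Unlisted neuron markers are left out of this median too. Whether Vgf and Pcsk2 turn against all the general neuron markers cannot be told. All 9 microglia markers lay above AAV-GFP, at a summed 1165 FPKM with AAV-CDYL and 186 FPKM with AAV-GFP. All 11 oligodendrocyte markers did so as well, at 2567 and 660 FPKM in AAV-CDYL and AAV-GFP. Lower by the rule were 3 of 5 excitatory and 3 of 5 inhibitory neuron markers. Higher were 6 of 7 astrocyte markers, with 1 lower, and 3 of 4 endothelial markers. Among all genes above the floor, 14.4% were lower and 31.3% higher. The leukocyte markers above the floor were all under 1 FPKM in AAV-GFP and passed the floor only through AAV-CDYL, with levels of 1.09 to 11.6 FPKM in AAV-CDYL and 0 to 0.771 FPKM in AAV-GFP. The part of these shifts in the differences described here was not tested.

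The pairs share no library, and Vgf and Pcsk1 can be set side by side across them, although the tables were normalized separately. AAV-GFP stood at 1.04 times control for Vgf and 1.12 times for Pcsk1, where the median over 949 genes at 10 FPKM or more in all 4 libraries was 0.998. AAV-CDYL stood at 0.977 times susceptible for Vgf and 1.08 times for Pcsk1, where that median was 0.935. Within a library, a ratio of 2 genes does not depend on scaling. Vgf exceeded Pcsk1 10.99-fold in susceptible and 9.11-fold in control, and 9.91-fold in AAV-CDYL and 8.45-fold in AAV-GFP.

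As a share of the summed FPKM of 5 neuron markers listed in both tables (Eno2, Map2, Nefl, Nefm and Syt1), a measure chosen after seeing the data, Vgf amounted to 9.25% in susceptible and 9.38% in control. With AAV-CDYL the share was 11.6%, against 10.8% with AAV-GFP. Pcsk1 amounted to 0.842% in susceptible and 1.03% in control, and to 1.17% in AAV-CDYL and 1.27% in AAV-GFP. By this measure Vgf was nearly level in the stress pair and above AAV-GFP in the AAV pair, while Pcsk1 lay below its comparison library in both.

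By distance over the 2 differences, the genes most like Vgf among the 948 others at 10 FPKM or more in all 4 libraries were Usp32, Clvs1, Fbxw7, Ugcg and Neurl1b. Usp32, the nearest, had differences of -0.48 in the stress pair and -0.58 in the AAV pair, a distance of 0.0070. Of the 948, 302 lay within 0.2 of Vgf. All 948 are listed in both tables, so genes inside the listing limit of either table are left out. Of the genes listed at 10 FPKM or more in both AAV libraries, only 32.5% were also listed in the stress table. How common the pattern is among all expressed genes therefore cannot be told.

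**Figure D3:**
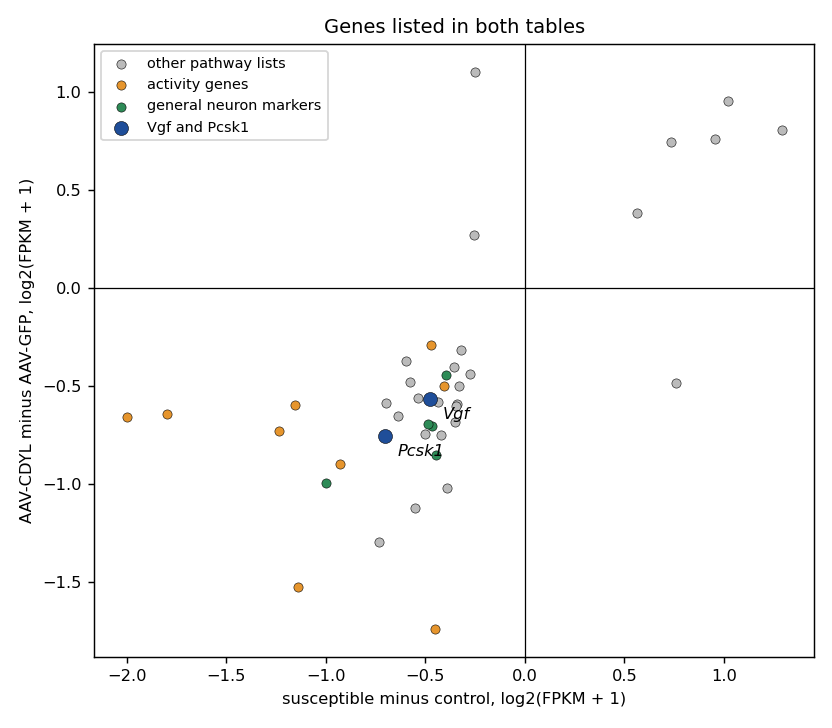
Difference of log2(FPKM + 1), susceptible minus control (x) against AAV-CDYL minus AAV-GFP (y), for 42 genes of the pathway, activity and general neuron marker lists above the floor in both tables. The lists of CREB factors and of reported receptors of a VGF peptide are not plotted. Their genes above the floor in both tables were higher in both pairs: Atf1 (0.36, 1.02), Crtc2 (0.53, 0.34) and C3ar1 (0.63, 2.14). Vgf (-0.48, -0.57) and Pcsk1 (-0.70, -0.76) lie among the 5 neuron markers in the lower left. This position relative to 0 is lost for Vgf in the AAV pair on centring at the median of listed neuron markers.

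Other enzymes of precursor processing did not move one way. In the stress pair 3 of 14 were above the floor, 1 of them counted higher and 1 lower. Cpm, a membrane carboxypeptidase that removes basic residues outside the cell, stood at 2.96 FPKM in susceptible and 1.05 FPKM in control. Pcsk4, a convertase known from germ cells, stood at 1.94 FPKM in susceptible and 3.78 FPKM in control. With AAV-CDYL 6 of 14 were above the floor, 3 higher and 1 lower (median 0.18, which became -0.11 when centred on all listed genes). Over all genes above the floor, 18.9% were higher and 10.8% lower in the stress pair, and 31.3% and 14.4% in the AAV pair.

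With AAV-CDYL, Ctsl, a lysosomal cathepsin that also cuts some precursors, stood at 77.5 FPKM, against 32.4 FPKM with AAV-GFP. Pcsk6, a furin-like convertase, stood at 6.81 FPKM with AAV-CDYL and 3.13 FPKM with AAV-GFP. Cpm stood at 2.16 and 0.864 FPKM in AAV-CDYL and AAV-GFP and passed the floor only through AAV-CDYL. Pcsk4 was lower, at 1.251 and 2.39 FPKM in AAV-CDYL and AAV-GFP. The inhibitor gene Pcsk1n, whose product blocks the convertase made from Pcsk1, stood at 155 FPKM with AAV-CDYL and 204 FPKM with AAV-GFP, under the rule. So did Pam, the enzyme that amidates peptide ends, at 46.9 and 65.8 FPKM in AAV-CDYL and AAV-GFP. These last 2 were named after their values were seen.

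Genes of granule formation and release were mostly below AAV-GFP in the AAV-CDYL library. Of 28, 18 were above the floor, 8 of them lower by the rule and 0 higher, with a median of -0.54. Of all genes above the floor 14.4% were lower, and of those at 10 FPKM or more in both libraries 22% were lower and 70.2% lay below AAV-GFP. Centred on general neuron markers, the granule list had 1 lower and 1 higher gene and a median of 0.10, and centred on all listed genes it had 17 lower. Rab3c, a small GTPase of secretory vesicles, stood at 45.4 FPKM with AAV-CDYL and 113 FPKM with AAV-GFP. Ptprn and Ptprn2 encode receptor-type phosphatase-like proteins of the dense-core granule membrane. Ptprn stood at 174 FPKM with AAV-CDYL and 306 FPKM with AAV-GFP, and Ptprn2 at 95.7 FPKM with AAV-CDYL and 160 FPKM with AAV-GFP. In the stress pair 6 of the 28 were above the floor and 1 was lower, where 10.8% of all genes above the floor were lower. The median of -0.35 became 0.12 relative to neuron markers. The lower gene was again Rab3c, at 65.6 FPKM in susceptible and 109.8 FPKM in control.

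Of 29 neuropeptide precursors, the substrates of these enzymes, 11 were above the floor in the stress pair, 5 higher and 1 lower (median 0.58), where 18.9% of all genes above the floor were higher and 10.8% lower. Centred on the median of listed genes the counts were 3 higher and 3 lower (median 0.33). The median was 0.38 with no floor and 1.05 relative to general neuron markers. Penk, the enkephalin precursor, stood at 15.9 FPKM in susceptible and 5.93 FPKM in control. Vip, a peptide of cortical interneurons, stood at 27.2 FPKM in susceptible and 12.7 FPKM in control. Nmb, the neuromedin B precursor, stood at 1.83 FPKM in susceptible and 0.395 FPKM in control, and passed the floor only through the susceptible library. Cck, cholecystokinin, the most abundant listed precursor, was the 1 lower gene, at 654 FPKM in susceptible and 991 FPKM in control. All 5 listed striatal neuron markers of 6 were higher in the same library, with summed levels of 84.8 FPKM in susceptible and 40.9 FPKM in control. Of these, Drd2 and Adora2a were under 1 FPKM in control and passed the floor only through the susceptible library. The part of the striatal markers in the Penk value was not tested.

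Of the same list 13 precursors were above the floor in the AAV pair, 2 higher and 1 lower, where 31.3% of all genes above the floor were higher and 14.4% lower. The median of -0.38 became 0.26 relative to neuron markers and 0.27 with no floor. The counts were 6 higher and 0 lower centred on neuron markers, and 1 higher and 7 lower centred on all listed genes. Nmb stood at 2.02 FPKM with AAV-CDYL and 0.559 FPKM with AAV-GFP, again above the floor only through the higher value. Penk stood at 13.2 and 7.14 FPKM in AAV-CDYL and AAV-GFP. The lower gene was Grp, the gastrin-releasing peptide precursor, at 22.0 FPKM with AAV-CDYL and 41.9 FPKM with AAV-GFP. The 3 listed striatal markers lay above AAV-GFP, at a summed 12.8 FPKM with AAV-CDYL and 7.93 FPKM with AAV-GFP, and Drd2 and Adora2a again passed the floor only through the higher value.

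Of 29 neuropeptide receptors 19 were above the floor with AAV-CDYL, and 9 passed the rule as lower and 2 as higher (median -0.44), where 14.4% of all genes above the floor were lower and 31.3% higher. Centred on neuron markers 0 were lower and 4 higher (median 0.20), and centred on all listed genes 14 were lower and 1 higher. The delta opioid receptor gene Oprd1 stood at 3.86 FPKM with AAV-CDYL and 9.58 FPKM with AAV-GFP. The somatostatin receptor gene Sstr4 stood at 11.2 FPKM with AAV-CDYL and 23.8 FPKM with AAV-GFP, and the neuropeptide Y receptor gene Npy5r at 0.870 and 2.16 FPKM in AAV-CDYL and AAV-GFP, above the floor only through AAV-GFP. The neurotensin receptor gene Ntsr1 was higher, at 5.50 and 2.88 FPKM in AAV-CDYL and AAV-GFP. Vipr2, a receptor of vasoactive intestinal peptide, stood at 1.15 and 0.105 FPKM in AAV-CDYL and AAV-GFP and passed the floor only through AAV-CDYL. In the stress pair 12 receptors were above the floor, 2 higher and 1 lower, where 18.9% of all genes above the floor were higher and 10.8% lower. The median of -0.34 became 0.13 relative to neuron markers, where the counts were 4 higher and 0 lower. Centred on all listed genes they were 0 higher and 6 lower. Ntsr1 stood at 3.46 FPKM in susceptible and 1.69 FPKM in control, Npy2r at 2.31 FPKM in susceptible and 1.14 FPKM in control, and the lower gene, Sstr2, at 12.9 FPKM in susceptible and 20.6 FPKM in control.

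C3ar1, a complement receptor that a VGF-derived peptide has been reported to bind, was low and counted higher in both pairs. It stood at 1.06 FPKM in susceptible and 0.337 FPKM in control, and at 5.10 FPKM in AAV-CDYL and 0.386 FPKM in AAV-GFP. Below 1 FPKM in both comparison libraries, it passed the floor only through the higher value. C1qbp, the other reported receptor, was in neither table.

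Among 14 peptide-degrading enzymes, 3 were above the floor in the stress pair, with Ace, angiotensin-converting enzyme, higher at 4.80 FPKM in susceptible and 2.43 FPKM in control. In the AAV pair 6 were above it, 2 higher and 1 lower. The shares over all genes above the floor were 18.9% higher and 10.8% lower in the stress pair, and 31.3% and 14.4% in the AAV pair. Anpep, aminopeptidase N, stood at 3.05 FPKM with AAV-CDYL and 0.533 FPKM with AAV-GFP and passed the floor only through AAV-CDYL. Prcp, which removes the residue after a proline, stood at 6.02 and 2.27 FPKM in AAV-CDYL and AAV-GFP. Ece1, an endothelin-converting enzyme, stood at 253 FPKM with AAV-CDYL and 425 FPKM with AAV-GFP.

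Of 8 CREB factors and coactivators, the regulators that act at the element shown above, 3 were above the floor in the stress pair and 0 passed the rule. In the AAV pair 5 were above it and 1 passed: Atf1, a CREB relative, at 11.1 FPKM with AAV-CDYL and 4.95 FPKM with AAV-GFP. Of all genes above the floor, 18.9% were higher in the stress pair and 31.3% in the AAV pair. Among 12 genes induced by neuronal activity, 8 of the 11 above the floor were lower and 0 higher in the stress pair (median -1.14, or -0.67 relative to neuron markers). With AAV-CDYL 8 of 10 were lower and 0 higher (median -0.65, or -0.015 relative to neuron markers). Among all genes above the floor, 10.8% were lower in the stress pair and 14.4% in the AAV pair. At 10 FPKM or more in both libraries these shares were 13.4% and 22%. The activity gene count of 8 with AAV-CDYL became 2 when centred on neuron markers and 5 with upper-quartile scaling, while the stress count became 6 and 8. Egr2 had the most negative difference of that list in the stress pair, at 0.787 FPKM in susceptible and 6.15 FPKM in control, above the floor only through the control library. With AAV-CDYL it was Egr3, at 19.3 FPKM with AAV-CDYL and 66.7 FPKM with AAV-GFP. Bdnf, the neurotrophin that induces Vgf, stood at 7.94 FPKM in susceptible and 10.8 FPKM in control, and at 8.57 FPKM in AAV-CDYL and 12.5 FPKM in AAV-GFP, under the rule both times.

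**Figure D4:**
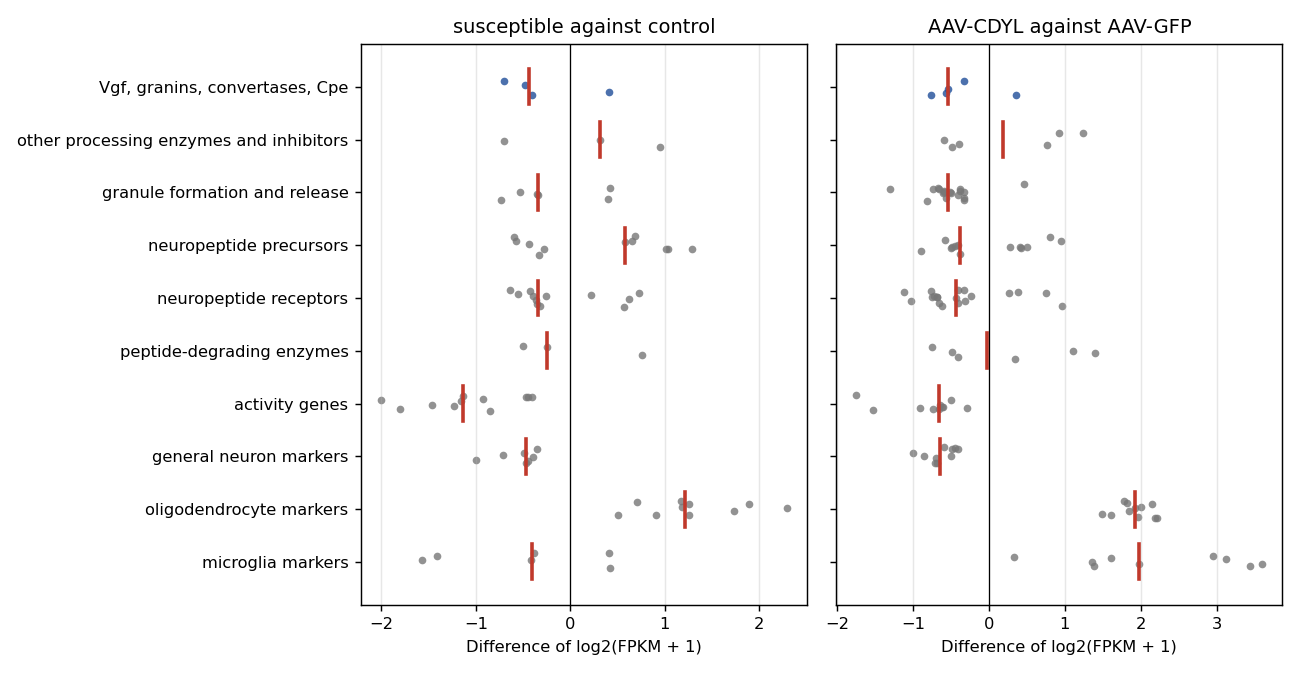
Difference of log2(FPKM + 1) for each gene above the floor (points) and the median (red line) in 10 gene lists, susceptible minus control on the left and AAV-CDYL minus AAV-GFP on the right. The medians of Vgf and its companions (-0.44 and -0.53) lie beside those of listed general neuron markers (-0.47 and -0.64), which leave out unlisted markers. Centred on those markers, the medians of Vgf and its companions turn to 0.030 and 0.10, and the signs of the granule and receptor list medians turn as well.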

How the data were processed

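The authors deposited 1 table per pair with FPKM values for both libraries, a log2 fold change and p-values and q-values. Per the submitters' processing notes these come from Cuffdiff on mm10. No source used here names the aligner, the annotation or a version. Per the labels' protocols, Trizol-extracted RNA (1 µg) went into a NEBNext Ultra RNA kit, whose libraries carry no strand information. The authors' deposited log2 fold change is a score beyond any usable range where a value is near 0 and was not used. The susceptible column was matched to its title although its header lacks a letter, and 0 per-sample columns were left unmapped.

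From the FPKM, differences of log2(FPKM + 1) were taken within a table. This scale understates differences of low genes. Ratios are of FPKM. Medians of lists are over listed genes above the floor. The genes described and all lists (8 of pathway genes, 9 of cell markers) were chosen with earlier results of these data known. Up to 3 genes per list and direction, by size of difference among those past the rule, were named. The 5 genes most like Vgf were taken by Euclidean distance. Effective depth was fitted on genes that have 1 transcript in GENCODE M21 (built on mm10), 3 to 20 kb long. Below 4.5 steps, 85.0% or more of the values came within 0.15 of a whole number of steps. Fragment numbers use the longest coding transcript and carry the uncertainty of that choice. The size rule and the depth fit were tested on simulated data. Promoters were taken from RefSeq, GRCm38.p6, and positions are as the files give them. Alternatives were other pseudocounts, floors, folds and centrings. The software was Python 3.11.15 with scipy 1.17.1, pandas 2.3.3, numpy 2.4.6 and, for the plots, matplotlib 3.10.9.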

Additional observations from a re-analysis of the deposited data

How the results depend on the processing

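Other pseudocounts (0.1 and 0.5), no floor, a floor of 5 FPKM and upper-quartile scaling left the count of the genes described at 1 in each pair, with Pcsk1 lower each time, and no member changed its sign under them. With a 2-fold rule the counts were 0 in the stress pair and 0 in the AAV pair, and with the listing limit as the rule they were 4 and 5. The last 2 counts hold every listed gene, which the listing limit nearly fixes in advance, so they carry no information. Centring on the median of listed genes (shifts of 0.24 and 0.30) gave 3 and 4, all lower, with Vgf at -0.72 and -0.87. Over all listed genes above the floor it turned 1006 higher and 575 lower into 532 and 1918 in the stress pair. In the AAV pair it turned 2516 and 1159 into 1630 and 3572. The listed genes have an empty middle, so this median depends on the listing limit. Over listed genes at 10 FPKM or more in both libraries the median was -0.36 in the stress pair and -0.40 in the AAV pair. Centring on general neuron markers (shifts of -0.47 and -0.64) gave 1 and 1, Cpe and Scg3, both higher, with splits of 2791 and 114, and 4295 and 58. It turned Chga to 0.068 in the stress pair, and Vgf to 0.068, Chgb to 0.31 and Pcsk2 to 0.10 in the AAV pair. These shifts are medians of listed markers only, and markers inside the listing limit are left out of them. Pathway genes counted over both pairs were 61, and 19 at 2-fold, 117 at the listing limit and 95 with median centring. The 117 is likewise largely set by which genes are listed.

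The medians that turned relative to listed neuron markers were those of granule genes (0.12), receptors (0.13) and peptide-degrading enzymes (0.22) in the stress pair. With AAV-CDYL they were those of granule genes (0.10), precursors (0.26), receptors (0.20), peptide-degrading enzymes (0.61) and CREB factors (0.31). Also with AAV-CDYL, the median of other processing enzymes became -0.030 with no floor and -0.11 with median centring, that of precursors 0.27 with no floor, and that of peptide-degrading enzymes 0.35 with a floor of 5 FPKM and 0.027 with upper-quartile scaling. The cause was not tested. No paired analysis was possible because each group has 1 library. Depth limits the low genes most, and counting error was small for the 7 listed genes; variation between mice is not measured here.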
